A study of Mus musculus with 4 samples.

Results

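Potassium channel genes were followed in mouse medulloblastoma, a tumour of the cerebellum, and in normal cerebellum. The set held every gene whose platform symbol starts with Kcn, other than the 7 Kcnh genes, and came to 85 of the 19938 named genes on the Affymetrix Mouse Gene 1.0 ST array. A gene counted as named when at least 1 probe set carried its symbol alone. Other genes of these families are not analysed here.

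There were 4 arrays of total RNA. 2 came from medulloblastomas of Math1-Cre;SmoM2 mice, aged 1 month and 2 months, in which Cre driven by Math1 (Atoh1), a gene of granule neuron progenitors, turns on SmoM2, a constitutively active Smo, which passes on Hedgehog signals. The third came from a medulloblastoma of a PtchLacZ/+ mouse aged 5 months, which carries 1 inactivated allele of the Hedgehog receptor gene Ptch1. These tumours were set against whole cerebellum from a wild-type mouse at 2 months of age. All mice had a mixed C57BL/6 and C3H background, and nothing says how many animals each array stands for. The spread behind the p-values is that between 3 tumours of 2 genotypes and 3 ages, so it mixes differences between tumours, ages and genotypes. PtchLacZ/+ and SmoM2 tumours differed in age as well as genotype, and these cannot be told apart.

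Potassium channels let potassium leave or enter the cell, set the resting potential and end the action potential. Voltage-gated families (Kcna to Kcnd, Kcnq) open on depolarisation, inward rectifiers (Kcnj) and tandem-pore channels (Kcnk) hold the resting potential, and calcium-activated channels (Kcnma1, Kcnn) respond to calcium entry. In the cerebellum, granule neurons, Purkinje cells, interneurons and glia use different combinations of them, and granule neuron progenitors gain many as they mature.

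Levels are log2 values as deposited. Differences are the mean of the 3 tumours minus the cerebellum, ± limma's standard error, and a gene passed at an adjusted p under 0.05 over all named genes. The lone cerebellum was assumed to vary like the tumours. With no detection calls at hand, levels under an array's lower quartile of named genes (5.09 to 5.17) could not be told from background, and a fall to such a level may be larger than measured. Tumour levels are given in the order 1-month SmoM2, 2-month SmoM2, PtchLacZ/+.

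Of the 85 genes, 26 fell in the tumours, 1 rose and 58 did not pass. Among all named genes 9.30% fell and 6.70% rose, 16.0% in either direction. For the potassium channel genes the share that fell was 30.6% and the share that rose was 1.2%. Falls of at least 2-fold were found for 24 of the 85 genes, against 7.92% of all named genes. Falls of 2 log2 units or more were found for 18, against 2.83%, and of 3 or more for 9, against 0.868%. The median difference over the 85 genes was −0.04, near the 0.04 of all named genes, and 42 of the 85 genes (49.4%) lay within 0.5 of no difference, against 64.5% of all named genes. All 3 tumours lay below the cerebellum for 41 of the 85 genes, against 32.0% of all named genes, and above it for 27, against 38.1%. Of the 85 genes, 11 (12.9%) were under the lower quartile on all 4 arrays, against 21.0% of all named genes (Kcna4, Kcna5, Kcne1, Kcne2, Kcne3, Kcng3, Kcnj1, Kcnj5, Kcnk18, Kcnrg and Kcnu1).

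**Figure D1:**
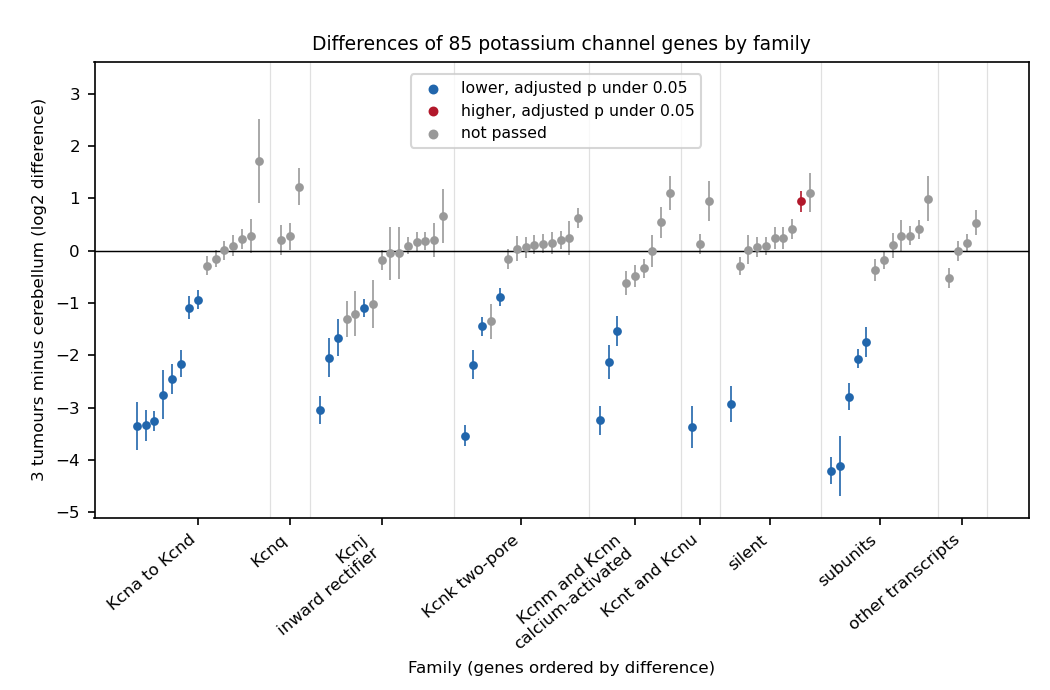
Mean difference, 3 tumours minus cerebellum (log2, vertical axis), for the 85 potassium channel genes grouped by family, with bars of 1 standard error. The 26 genes that fell (blue) reach −4.20 and lie in the voltage-gated, inward rectifier, tandem-pore, calcium-activated, sodium-activated, silent and subunit groups, and the gene that rose (red) is Kcng2.

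The tissues differed in cell markers as well. Mature granule neuron markers had a mean level of 7.97, 7.60 and 6.73 in the tumours and 11.26 in the cerebellum, and 9 of 12 fell. Of the markers measured, 6 of 8 for Purkinje cells, 8 of 9 for inhibitory interneurons, 6 of 12 for astrocytes and Bergmann glia and 8 of 11 for oligodendrocytes also fell. All 10 granule neuron progenitor markers rose, with means of 10.82, 10.56 and 11.10 in the tumours and 6.03 in the cerebellum, as did 6 of 12 for microglia and macrophages and 5 of 8 for oligodendrocyte precursors. None of the granule neuron, Purkinje cell or interneuron markers lay under the lower quartile on all 3 tumour arrays. In these bulk samples fewer cells of a type and less RNA per cell cannot be told apart, and the part of cell makeup in the channel differences was not tested.

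Promoter sequences are shown for the 4 genes with the largest falls among the eligible genes with exactly 1 RefSeq promoter entry. Each is the 250 bases before the gene's start, 5′ to 3′ on the gene's strand, from RefSeq on GRCm38.p6, with E-boxes (CANNTG, the core bound by Math1 and other basic helix-loop-helix factors) in capitals. They lie at chr7:46396218-46396467 (Kcnc1, plus strand), chr6:21215096-21215345 (Kcnd2, plus strand), chr1:172329323-172329572 (Kcnj9, minus strand) and chr8:119635681-119635930 (Kcng4, minus strand).
Kcnc1: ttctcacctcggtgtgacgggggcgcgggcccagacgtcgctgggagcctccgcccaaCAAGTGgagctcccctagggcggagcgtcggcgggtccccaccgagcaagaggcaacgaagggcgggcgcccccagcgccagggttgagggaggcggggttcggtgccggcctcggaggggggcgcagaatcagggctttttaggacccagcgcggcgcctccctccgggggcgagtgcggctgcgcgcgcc
Kcnd2: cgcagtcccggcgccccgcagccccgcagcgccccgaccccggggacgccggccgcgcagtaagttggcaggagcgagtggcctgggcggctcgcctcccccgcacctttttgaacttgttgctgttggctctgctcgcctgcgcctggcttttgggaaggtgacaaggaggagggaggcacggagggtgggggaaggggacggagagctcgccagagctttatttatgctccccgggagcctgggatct
Kcnj9: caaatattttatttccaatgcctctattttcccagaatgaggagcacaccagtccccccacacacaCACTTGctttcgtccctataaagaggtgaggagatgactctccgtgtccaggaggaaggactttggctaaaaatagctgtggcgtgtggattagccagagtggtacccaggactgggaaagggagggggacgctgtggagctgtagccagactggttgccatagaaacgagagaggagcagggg
Kcng4: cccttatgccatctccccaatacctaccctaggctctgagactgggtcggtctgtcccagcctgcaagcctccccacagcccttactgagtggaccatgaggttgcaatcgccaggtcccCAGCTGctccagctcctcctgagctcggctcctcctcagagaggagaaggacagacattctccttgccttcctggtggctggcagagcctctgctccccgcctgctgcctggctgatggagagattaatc
The 4 windows have little in common. Kcnc1 and Kcnd2 start in windows rich in CG dinucleotides, with 30 and 22, against a median of 6 over all promoters, whereas Kcnj9 has 5 and Kcng4 has 4. Their GC content was 74.4% for Kcnc1, 68.8% for Kcnd2, 52.0% for Kcnj9 and 60.4% for Kcng4, against a median of 52.4%. GC boxes (GGGCGG, either strand) numbered 3 in Kcnc1 and 1 in Kcnd2, and none overlapped an E-box. Entries were found for 64 of the 85 genes and 19 of the 26 that fell. An E-box occurred in 76.7% of the 30 promoters of genes that fell, in 68.5% of the 89 promoters of all potassium channel genes matched and in 66.2% of all 32851 promoters. GC boxes occurred in 36.7%, 40.4% and 32.7% of those sets. The GLI motif GACCACCCA occurred in 0.0%, 0.0% and 0.2%. These matches describe letters in the window and not bound sites.

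The Shaker (Kcna), Shab (Kcnb), Shaw (Kcnc) and Shal (Kcnd) families form the classical voltage-gated pores. Of their 15 measured genes, 8 fell and none rose, with a median difference of −0.94. Kcnd2, which carries the fast A-type current of granule neurons, stood at 7.90, 8.17 and 7.94 in the tumours and 11.26 in the cerebellum. That made it 9.57-fold lower (−3.26 ± 0.19, adjusted p = 0.00335), with the tumours closer to each other than to the cerebellum. Kcnd3, the other Shal gene that fell, was at 6.86, 6.84 and 6.66 in the tumours and 7.73 in the cerebellum (−0.94 ± 0.18, adjusted p = 0.0301). Kcnc1, a Shaw channel for rapid repolarisation, was 10.2-fold lower, at 7.58, 6.42 and 6.95 in the tumours and 10.34 in the cerebellum (−3.35 ± 0.45, adjusted p = 0.0122). Its relatives Kcnc4 and Kcnc2 fell less. Kcnc4 was at 6.17, 6.21 and 5.70 in the tumours and 8.19 in the cerebellum (−2.16 ± 0.26, adjusted p = 0.00986). Kcnc2, of fast-spiking interneurons, was at 4.99, 5.38 and 5.29 in the tumours and 6.31 in the cerebellum (−1.09 ± 0.22, adjusted p = 0.033), and its 1-month value lay under the lower quartile.

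Among the Shaker genes, Kcna1, Kcna2 and Kcna6, which contribute to axonal channels, fell. Kcna1 was 10.1-fold lower, at 6.76, 6.11 and 6.29 in the tumours and 9.73 in the cerebellum (−3.34 ± 0.30, adjusted p = 0.0053). Kcna2, found with Kcna1 in axons and basket cell terminals, was at 7.35, 6.89 and 6.71 in the tumours and 9.44 in the cerebellum (−2.45 ± 0.29, adjusted p = 0.00909), and its second probe set differed by −3.36. Kcna6 was at 6.22, 6.85 and 5.65 in the tumours and 8.99 in the cerebellum (−2.75 ± 0.47, adjusted p = 0.0217). Kcna3, known best from lymphocytes, did not pass (0.22 ± 0.18, adjusted p = 0.524). The other Shaker genes (Kcna4, Kcna5, Kcna7 and Kcna10) and Kcnd1 did not pass either, with differences between −0.29 and 0.28. Kcnc2 and Kcnd3 no longer passed without the PtchLacZ/+ tumour (adjusted p = 0.102 and 0.126) or without the 1-month SmoM2 tumour (0.0672 and 0.0729).

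Kcnb2, a Shab delayed rectifier, lay above the cerebellum in all 3 tumours but unevenly. It was at 7.75, 5.86 and 7.71 in the tumours and 5.39 in the cerebellum, so the 2-month SmoM2 tumour lay near the cerebellum and the other tumours well above it (1.72 ± 0.80, adjusted p = 0.242). Leaving out the 2-month tumour, the one that stood apart from the other tumours, took the difference to 2.34, which passed. The difference was 1.40 without the 1-month tumour and 1.42 without the PtchLacZ/+ tumour, and passed in neither case.

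**Figure D2:**
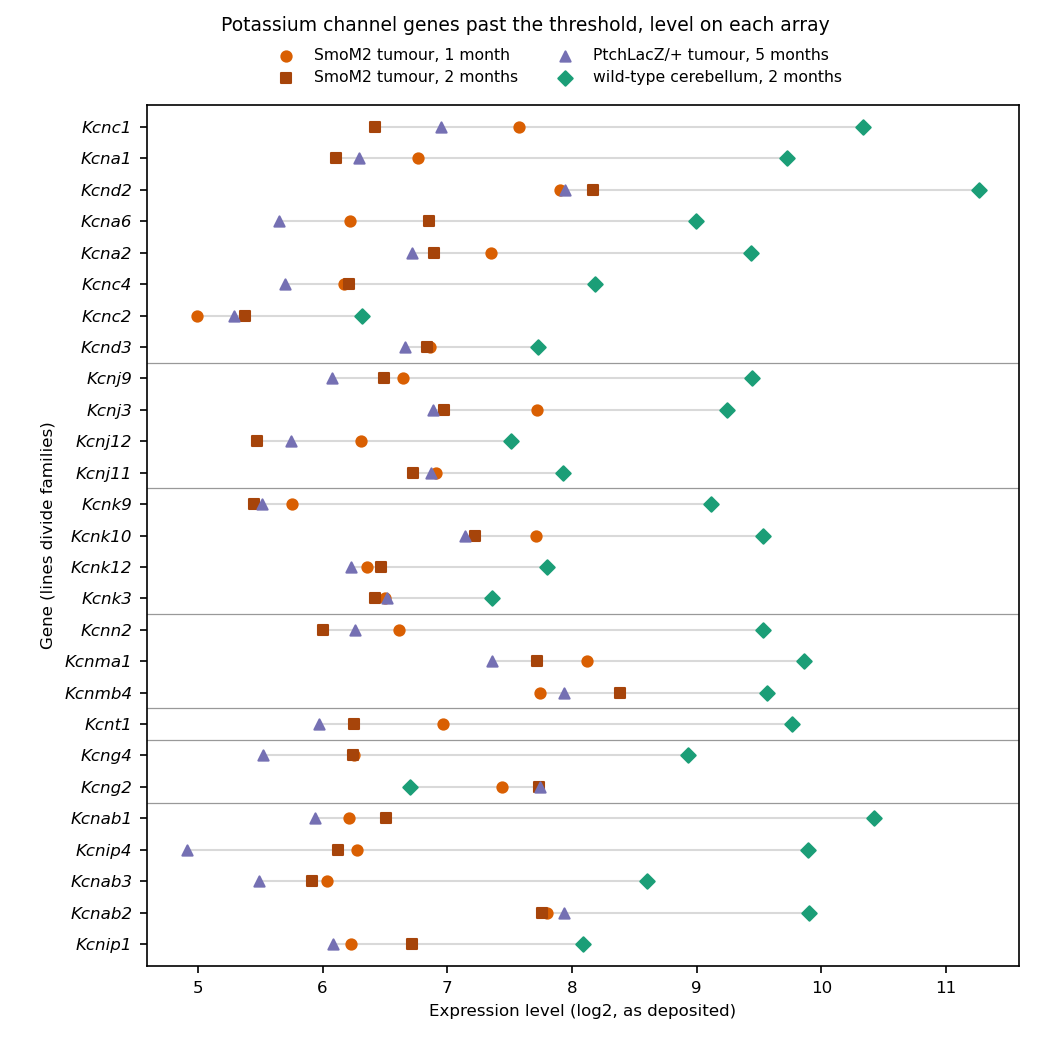
Log2 level (horizontal axis) in each array for the 27 potassium channel genes that passed, with 1 marker per array for the 3 tumours and the cerebellum. For 26 genes the cerebellum lies to the right of all 3 tumours, and for Kcng2 it lies to their left.

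Subunits that sit beside these pores showed the 2 largest falls among the 85 genes, in Kcnab1 and Kcnip4. Kcnab proteins bind Shaker channels inside the cell, and all 3 fell. Kcnab1, which confers fast inactivation, was at 6.22, 6.51 and 5.94 in the tumours and 10.43 in the cerebellum, 18.4-fold lower (−4.20 ± 0.26, adjusted p = 0.00343). Kcnab3 was at 6.04, 5.91 and 5.49 in the tumours and 8.61 in the cerebellum (−2.79 ± 0.26, adjusted p = 0.00609). Kcnab2 was at 7.80, 7.76 and 7.94 in the tumours and 9.90 in the cerebellum (−2.07 ± 0.18, adjusted p = 0.00509).

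Kcnip proteins are calcium-binding subunits of the Shal pores, and their genes differed among themselves. Kcnip4 was 17.4-fold lower, at 6.28, 6.12 and 4.91 in the tumours and 9.89 in the cerebellum (−4.12 ± 0.57, adjusted p = 0.0129). Its PtchLacZ/+ value was under the lower quartile, so the fall there may be larger than measured. Kcnip1 was at 6.23, 6.72 and 6.08 in the tumours and 8.09 in the cerebellum (−1.75 ± 0.29, adjusted p = 0.0208), which missed the threshold once the PtchLacZ/+ tumour was left out (adjusted p = 0.0534). Kcnip3, also known as a calcium-regulated transcriptional repressor, was at 8.71, 9.56 and 8.54 in the tumours and 7.94 in the cerebellum (0.99 ± 0.43, adjusted p = 0.211). All 3 tumours thus lay above the cerebellum for Kcnip3 without passing the test. The 5 Kcne genes, for single-pass subunits, and Kcnip2 did not pass, with differences between −0.38 and 0.41, and 3 of the 5 Kcne genes were under the lower quartile on all arrays. Over the 12 subunit genes, 5 fell and none rose.

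Silent subunits (Kcng, Kcns, Kcnf1 and Kcnv) carry no current alone and modify Shab channels. Of 10 measured, 1 fell (10.0%), 1 rose (10.0%) and 8 did not pass. These shares were near those of all named genes, of which 9.30% fell and 6.70% rose. Kcng4 was 7.60-fold lower, at 6.25, 6.24 and 5.53 in the tumours and 8.93 in the cerebellum (−2.93 ± 0.35, adjusted p = 0.00913). Kcng2 rose, at 7.44, 7.74 and 7.74 in the tumours and 6.70 in the cerebellum (0.94 ± 0.21, adjusted p = 0.042). Kcng2 no longer passed without the 1-month SmoM2 tumour (1.04, adjusted p = 0.0574) or without the PtchLacZ/+ tumour (0.89, adjusted p = 0.15), although the difference stayed near its size over all arrays. Kcns2 was at 6.76, 7.41 and 6.54 in the tumours and 5.80 in the cerebellum, above it in all 3 without passing (1.11 ± 0.37, adjusted p = 0.119).

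The Kcnq channels carry the slow M-current, and none of the 3 measured genes passed. Kcnq5 was at 7.18, 6.44 and 7.20 in the tumours and 5.72 in the cerebellum (1.22 ± 0.36, adjusted p = 0.0874), again lowest among tumours in the 2-month one. Kcnq3 was at 6.72, 6.20 and 6.75 in the tumours and 6.35 in the cerebellum (0.20 ± 0.28, adjusted p = 0.722).

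Inward rectifiers numbered 15, of which 4 fell and none rose, with a median difference of −0.18. Kcnj9 and Kcnj3 encode subunits of the G-protein-gated channels. Kcnj9 was 8.23-fold lower, at 6.64, 6.49 and 6.07 in the tumours and 9.44 in the cerebellum (−3.04 ± 0.27, adjusted p = 0.0053). Kcnj3 was at 7.72, 6.97 and 6.88 in the tumours and 9.24 in the cerebellum (−2.05 ± 0.37, adjusted p = 0.0256). The remaining subunits of that class did not pass. Kcnj6 was at 6.58, 5.31 and 6.05 in the tumours and 6.02 in the cerebellum (−0.04 ± 0.50, adjusted p = 0.977), and Kcnj5 was under the lower quartile on all arrays.

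Kcnj11, a pore of ATP-sensitive channels, was at 6.91, 6.73 and 6.87 in the tumours and 7.93 in the cerebellum (−1.09 ± 0.18, adjusted p = 0.0191). Its neuronal sulfonylurea receptor Abcc8 was at 6.90, 6.08 and 6.59 in the tumours and 8.06 in the cerebellum (−1.54 ± 0.34, adjusted p = 0.0431), but did not pass once the PtchLacZ/+ array was left out (−1.57, adjusted p = 0.101). The alternative pair is Kcnj8 and Abcc9, known from pericytes and smooth muscle. Neither gene of that pair passed (Kcnj8 0.65 ± 0.51, adjusted p = 0.498). Kcnj12, a classical strong rectifier, was at 6.31, 5.47 and 5.75 in the tumours and 7.51 in the cerebellum (−1.67 ± 0.35, adjusted p = 0.0381). Without the PtchLacZ/+ tumour Kcnj3, Kcnj11 and Kcnj12 no longer passed (adjusted p = 0.059, 0.0814 and 0.0999), and Kcnj11 was also lost without the 1-month SmoM2 tumour (0.0502).

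Kcnj10 and Kcnj16 form the glial channels of astrocytes and Bergmann glia, and lay below the cerebellum in all 3 tumours without passing. Kcnj10 was at 9.17, 8.66 and 8.01 in the tumours and 9.63 in the cerebellum (−1.02 ± 0.46, adjusted p = 0.223). Kcnj16 was at 6.69, 6.84 and 6.08 in the tumours and 7.84 in the cerebellum (−1.31 ± 0.34, adjusted p = 0.0644). For both genes the PtchLacZ/+ tumour was lowest. The astrocyte and Bergmann glia markers had a mean of 8.86, 9.02 and 8.13 in the tumours and 10.09 in the cerebellum, also lowest in the PtchLacZ/+ tumour, and their part in the result was not tested. Kcnj13, an epithelial rectifier of choroid plexus, was at 5.95, 4.97 and 5.88 in the tumours and 6.81 in the cerebellum (−1.21 ± 0.43, adjusted p = 0.141), and its 2-month value was under the lower quartile. Without the 2-month tumour Kcnj13 and Kcnj16 passed as lower (adjusted p = 0.00969 and 0.0128).

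Tandem-pore channels carry the background leak, and 4 of 14 fell with none rising. Kcnk9, an acid-sensitive channel of granule neurons, was 11.6-fold lower, at 5.75, 5.45 and 5.51 in the tumours and 9.11 in the cerebellum (−3.54 ± 0.20, adjusted p = 0.00335). Its relative Kcnk3 was at 6.50, 6.42 and 6.52 in the tumours and 7.36 in the cerebellum (−0.88 ± 0.17, adjusted p = 0.0284). Both acid-sensitive genes thus fell, by very different amounts. Kcnk10, a mechanosensitive channel of the TREK type, was at 7.71, 7.22 and 7.14 in the tumours and 9.54 in the cerebellum (−2.18 ± 0.28, adjusted p = 0.0105). Kcnk2 and Kcnk4 are of the same type and did not pass (0.14 and 0.03). Kcnk12 was at 6.35, 6.47 and 6.23 in the tumours and 7.80 in the cerebellum (−1.45 ± 0.19, adjusted p = 0.0107). Kcnk1, the founding member of the family, was at 10.29, 9.50 and 9.94 in the tumours and 11.26 in the cerebellum and narrowly missed the threshold (−1.35 ± 0.33, adjusted p = 0.056). Kcnk1 lay close to the threshold, and passed under 5 of 8 alternatives: without the 2-month SmoM2 tumour (adjusted p = 0.0102), without the 1-month one (0.0366), after the filter on low levels (0.0368), after quantile normalization (0.0409) and with a trended prior (0.0447). It did not pass without the PtchLacZ/+ tumour (0.132), after median centring (0.0648) or with probe sets averaged (0.0566). Kcnk3 was lost on leaving out the PtchLacZ/+ tumour (adjusted p = 0.119) or the 1-month tumour (0.0838).

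Calcium-activated channels numbered 9, of which 3 fell and none rose. Kcnn2, a small-conductance channel of Purkinje cells, was 9.46-fold lower, at 6.62, 6.00 and 6.26 in the tumours and 9.54 in the cerebellum (−3.24 ± 0.28, adjusted p = 0.00511). Kcnma1, the pore of the large-conductance channel, was at 8.12, 7.72 and 7.36 in the tumours and 9.87 in the cerebellum (−2.13 ± 0.32, adjusted p = 0.016). A second probe set annotated to Kcnma1 did not share this pattern. It was at 4.17, 9.43 and 4.15 in the tumours and 4.45 in the cerebellum, and the gene did not pass when its probe sets were averaged (adjusted p = 0.897). Kcnmb4, the neuronal subunit of the large-conductance channel, was at 7.75, 8.39 and 7.94 in the tumours and 9.56 in the cerebellum (−1.54 ± 0.29, adjusted p = 0.0286, and 0.0849 without the PtchLacZ/+ tumour).

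Kcnn1 and Kcnn3, relatives of Kcnn2, did not pass, with differences of −0.48 and −0.62. Kcnn4, the intermediate-conductance channel of blood and immune cells, was at 6.51, 7.26 and 6.79 in the tumours and 5.76 in the cerebellum (1.10 ± 0.32, adjusted p = 0.0883). Microglia and macrophage markers had a mean of 8.28, 8.63 and 8.62 in the tumours and 6.72 in the cerebellum, and their part in the Kcnn4 values was not tested. The sodium-activated channel Kcnt1 was 10.4-fold lower, at 6.96, 6.26 and 5.97 in the tumours and 9.77 in the cerebellum (−3.37 ± 0.41, adjusted p = 0.0097). Its relative Kcnt2 was at 5.35, 5.11 and 6.02 in the tumours and 4.54 in the cerebellum (0.95 ± 0.38, adjusted p = 0.178), where the 2-month tumour and the cerebellum were under the lower quartile. Of 4 further transcripts with Kcn symbols, none passed. Kcnd3os, annotated opposite Kcnd3, was at 7.39, 7.86 and 7.67 in the tumours and 7.11 in the cerebellum (0.53 ± 0.24, adjusted p = 0.219).

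Leaving out the 2-month SmoM2 tumour raised the number of calls in both directions, here and over all named genes. Without that tumour 9 of the 85 potassium channel genes passed as higher, against 13.49% of all named genes. As lower 29 passed, against 16.66% of all named genes, and all 26 original falls were among the 29. The 9 that passed as higher were Kcnb2, Kcng2, Kcnip3, Kcnk6, Kcnmb3, Kcnn4, Kcnq5, Kcns2 and Kcnt2, with differences from 0.66 to 2.34. Over all named genes the same omission took the number that rose to 2689, against 1336 with all arrays, and the number that fell to 3321, against 1855.

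**Figure D3:**
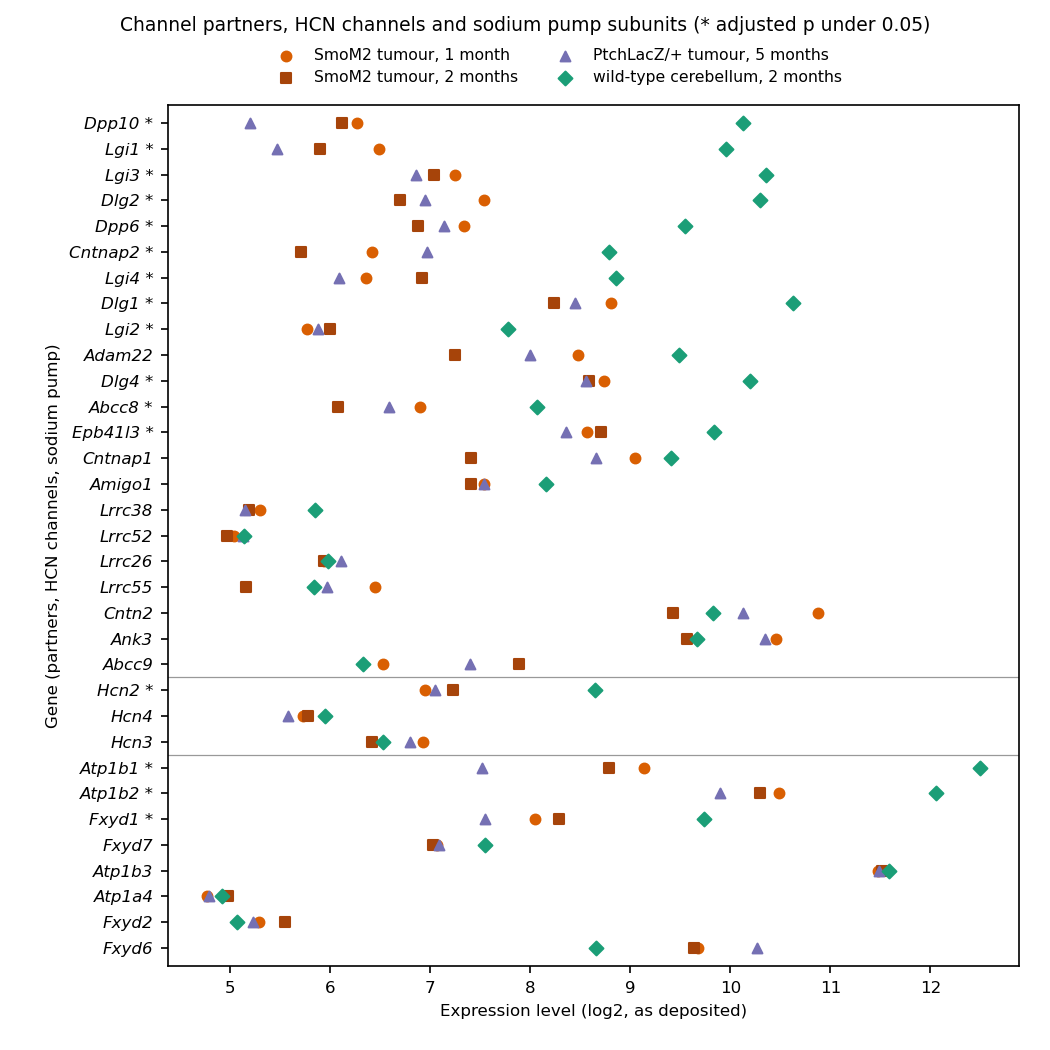
Log2 level (horizontal axis) in each array for potassium channel partners, HCN channels and sodium pump subunits, 1 marker per array, with an asterisk on genes that passed. For every gene with an asterisk the cerebellum lies to the right of all 3 tumours.

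Proteins that assemble with or place these channels were followed with the same fit. Of 22 partner genes, all measured, 12 fell, none rose and 10 did not pass, with a median difference of −1.55. Among all named genes 9.30% fell and 6.70% rose. Dpp10 and Dpp6, companions of the Shal pores, both fell. Dpp10 was at 6.27, 6.12 and 5.20 in the tumours and 10.12 in the cerebellum (−4.26 ± 0.45, adjusted p = 0.00729). Dpp6 was at 7.34, 6.88 and 7.14 in the tumours and 9.55 in the cerebellum (−2.43 ± 0.24, adjusted p = 0.00634). Pore, Kcnip and Dpp genes of the Shal complex thus included members that fell in each role.

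Of the partners of axonal Shaker channels, all 4 Lgi genes fell. Lgi1, a secreted protein of the Kcna1 complex, was at 6.49, 5.90 and 5.47 in the tumours and 9.96 in the cerebellum (−4.00 ± 0.41, adjusted p = 0.00683). Its receptor Adam22 did not pass (−1.58 ± 0.48, adjusted p = 0.0989). Cntnap2, which clusters Shaker channels beside the node, was at 6.42, 5.71 and 6.97 in the tumours and 8.79 in the cerebellum (−2.42 ± 0.49, adjusted p = 0.0337). It did not pass without the 1-month tumour (adjusted p = 0.0548). The scaffolds Dlg1, Dlg2 and Dlg4 fell, with differences of −2.13, −3.24 and −1.57, and so did Epb41l3 (−1.29). Epb41l3 was lost on leaving out the PtchLacZ/+ array (−1.20, adjusted p = 0.0669). Not every axonal partner passed. Cntn2 did not, at 10.87, 9.43 and 10.13 in the tumours and 9.83 in the cerebellum (0.31 ± 0.55, adjusted p = 0.791).

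HCN channels and the sodium pump also move potassium or work against its leak. Of 3 HCN genes measured, Hcn2 fell, at 6.95, 7.23 and 7.05 in the tumours and 8.65 in the cerebellum (−1.57 ± 0.19, adjusted p = 0.0099). Of 8 pump genes measured, 3 fell. Atp1b1, a pump β subunit, was at 9.14, 8.79 and 7.52 in the tumours and 12.49 in the cerebellum (−4.01 ± 0.65, adjusted p = 0.0188). Atp1b2 (−1.83) and Fxyd1 (−1.77) fell as well, while Atp1b3, another β subunit, did not pass (−0.10 ± 0.16, adjusted p = 0.779).

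The PtchLacZ/+ tumour was next set against the SmoM2 tumours, a comparison with 1 residual degree of freedom. No potassium channel gene passed, and over all named genes the share was 0.00%. At an unadjusted p under 0.05 by limma 5 of the 85 genes differed, or 4 lower and 1 higher, against 1.40% of all named genes. Kcnip4 differed most, by −1.29 ± 0.26. It was also the 1 gene whose PtchLacZ/+ level lay outside both SmoM2 levels by 1 log2 unit or more, against 0.386% of all named genes. The others at that unadjusted p included the silent subunit Kcng4 (−0.72 ± 0.25) and the glial rectifiers Kcnj10 (−0.90 ± 0.33) and Kcnj16 (−0.69 ± 0.26). These lay below both SmoM2 tumours, and Kcnt2, the last of the 5, lay above them (0.79 ± 0.27). Further genes were below both SmoM2 tumours without reaching that p, such as Kcna6 (−0.88). Beside these, 8 of 12 mature granule neuron markers and 8 of 8 Purkinje cell markers were lowest among the tumours in the PtchLacZ/+ one. The Purkinje cell markers had a mean of 7.60, 7.46 and 5.84 in the tumours and 10.92 in the cerebellum, and the part of these markers in the result was not tested. Of the 26 channel genes that fell against the cerebellum, 15 (57.7%) were lowest in the PtchLacZ/+ tumour, near the 51.1% found over all 1855 genes that fell.

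**Figure D4:**
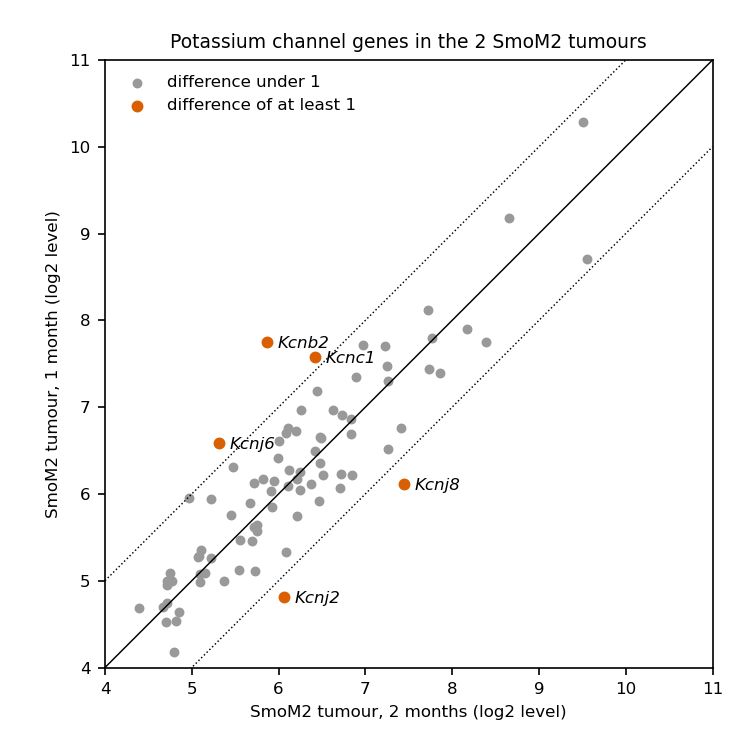
Log2 level of each potassium channel gene in the SmoM2 tumours at 1 and 2 months (1 point per gene), with lines at a difference of 1 log2 unit. Of the 85 genes, 5 lie beyond the lines (Kcnb2, Kcnj6, Kcnc1, Kcnj8 and Kcnj2).

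Between the SmoM2 tumours there was 1 array at each age, so no test was possible. An absolute difference of at least 1 was found for 5 of the 85 genes, against 3.71% of all named genes. At 1 month Kcnb2 was higher by 1.88, Kcnj6 by 1.27 and Kcnc1 by 1.16 than at 2 months. Kcnj8 was at 6.12 at 1 month and 7.45 at 2 months (−1.33), with 6.81 in the PtchLacZ/+ tumour and 6.14 in the cerebellum. Kcnj2, a strong rectifier, was at 4.81 at 1 month and 6.07 at 2 months (−1.25), with 5.04 in the PtchLacZ/+ tumour and 5.36 in the cerebellum, and its 1-month and PtchLacZ/+ values were under the lower quartile. Both genes were thus highest in the 2-month tumour.

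Vessel markers differed in the same direction. Abcc9, the partner of Kcnj8, was at 6.52 at 1 month and 7.89 at 2 months, with 7.40 in the PtchLacZ/+ tumour and 6.33 in the cerebellum. The 8 pericyte and smooth muscle markers were all lower at 1 month, with a median difference of −1.13, and had a mean of 6.99, 8.21 and 6.98 in the tumours and 7.59 in the cerebellum. Of 9 endothelial markers, 8 were lower at 1 month (median −1.09). Their part in the Kcnj8 and Kcnj2 values was not tested. Kcnj13 lay just inside the limit, higher at 1 month by 0.98. The 7 choroid plexus and ependyma markers differed by a median of 0.39 between 1 and 2 months, and 5 of them were higher at 1 month. Their mean was 7.26, 6.06 and 7.16 in the tumours and lowest in the cerebellum (5.96), whereas Kcnj13 was highest in the cerebellum (6.81). Ttr stood apart from the rest of that list, at 11.27 at 1 month and 4.50 at 2 months, with 10.81 in the PtchLacZ/+ tumour and 6.23 in the cerebellum. The part of these markers in the Kcnj13 values was not tested.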

How the data were processed

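Total RNA of 3 tumours and 1 cerebellum was measured, 1 array each. The authors deposited 1 table of log2 values for 35557 probe sets, and the submitters' processing notes name Affymetrix Expression Console as the tool. Its version and its way of summarising and normalizing the probes were not given in the sources used here, and the log2 scale was read from the range of the values. Array normalization usually assumes that most genes keep their level, and array values can compress large differences.

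The platform annotation named the probe sets (21789 with 1 symbol, 1621 with several and 12147 with none). For each of 19938 genes the single-symbol probe set highest on average was kept, which mattered for 999 genes and, among the 85 potassium channel genes, for Kcna2 and Kcnma1. All 85 symbols were the same in RefSeq.

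Differences were fitted with limma 3.58.1 in R 4.3.3 (lmFit, eBayes, two-sided) on all named genes, with Benjamini-Hochberg adjustment, after a check of the script on simulated data. The tumours against the cerebellum left 2 residual degrees of freedom and PtchLacZ/+ against SmoM2 left 1. Groups came from the genotype given in the sample labels. Arrays carry no read depth, and their number limits the precision.

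The members and lists were chosen with earlier results of these data known. Levels on every array are given for potassium channel genes that passed, for those with a difference of at least 1 that did not, for those apart between tumours, and for at least 1 gene per family. Of the partner, HCN and pump lists, some genes that passed and a few others are named. Alternatives were quantile normalization, median centring, averaging probe sets, a filter on low levels, a trended prior, a lower limit of 0.5 and leaving out each tumour.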

Additional observations from a re-analysis of the deposited data

Results flagged for a closer look

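A second probe set annotated to Kcnma1, not used in the comparisons, stood apart in 1 tumour. It was at 4.17 in the 1-month SmoM2 tumour, 9.43 in the 2-month SmoM2 tumour, 4.15 in the PtchLacZ/+ tumour and 4.45 in the cerebellum, so that the highest tumour lay 4.98 above the cerebellum on the log2 scale. The other 3 arrays were under their lower quartile of named genes. The cause was not tested.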

How the results depend on the processing

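The number of potassium channel genes that fell was between 18 and 29 under all alternatives run, against 26, and no named gene reversed. The filter on low levels used the mean over the 4 arrays, cerebellum included, so a gene could stay through a high cerebellum level alone. It gave 18 of 24 genes tested, against 13.71% of all genes kept. That choice favours genes that fell, so this count is no independent check of the falls. Leaving out the PtchLacZ/+ tumour gave 18 of 85, against 4.70% of all named genes. The share of all named genes that fell ranged from 4.70% to 16.66% over the alternatives, against 9.30% as deposited. Of the 27 potassium channel genes that passed, 17 passed under every alternative that tested them. The number that rose was 1 as deposited, 0 after quantile normalization and 0 with a trended prior. It ranged from 0 to 9 on leaving out each tumour. It was 9 without the 2-month SmoM2 tumour, where 13.49% of all named genes rose, and 0 without either of the others. Among partner, HCN and pump genes, none rose with all arrays, 1 (Fxyd6) did after the filter on low levels, and 0 to 2 did on leaving out each tumour (Fxyd6 and Ank3 without the 2-month one). Genes apart between the SmoM2 tumours numbered 1 after the filter, which kept 24 of the 85 genes, and 27 at a limit of 0.5, since that limit admits smaller differences. The shares of all named genes under these settings are not given here, so the counts cannot be set against them. Where calls were lost or gained, the cause was not tested. PtchLacZ/+ against SmoM2 gave 0 under all alternatives run. With 1 cerebellum the spread between normal samples is unknown, and genes near the lower quartile can show only part of a fall. No paired analysis was possible, because the tumours and the cerebellum came from mice of different genotypes and the labels give no pairing.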

Other observations

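Some potassium channel genes are direct neighbours in the RefSeq order of protein-coding genes, in 10 pairs. In 5 pairs 1 gene passed as lower in the tumours against the cerebellum and the other did not pass, in 1 pair both were lower and in 4 pairs neither passed. The difference between neighbours was not tested. On chromosome 3, Kcna2 fell (−2.45) between Kcna3 (0.22) and Kcna10 (0.01), which did not pass. On chromosome 6, the adjacent Kcna1 (−3.34) and Kcna6 (−2.75) both fell, while Kcna5 on the other side of Kcna1 did not pass (0.09) and was under the lower quartile on all arrays. On chromosome 1, Kcnj9 fell (−3.04) beside Kcnj10, which did not pass (−1.02). On chromosome 11, Kcnip1 fell (−1.75) and its neighbour Kcnmb1 did not pass.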
